A study of Mus musculus with 14 samples.

Results

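Wild-type hippocampus of embryonic mice was compared between the litters of 2 mouse lines by RNA-seq. Of the 14 libraries of the series, 7 were taken by their genotype labels: the 3 libraries of wild-type littermates of 189N3 mice and the 4 libraries of wild-type littermates of Dp(16)1Yey mice. In the series, 189N3 mice carry an extra copy of Dyrk1a, the gene of a protein kinase, and Dp(16)1Yey mice carry a duplicated stretch of chromosome 16 that includes it. The littermates analysed here carry neither change, were untreated, and were collected between embryonic days 16 and 18 by the labels, which do not give the day of each library.

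For the colonies that gave primary cultures, the methods name a cross with C57BL6, and breeding is not described further for the tissue libraries. Line, litter, embryonic stage and any difference in dissection or library preparation are carried by the same 2 groups of libraries and cannot be told apart. The deposited table holds 59796 assembled loci, and 36047 of them had a mean of at least 10 normalised fragments over the 7 libraries. A normalised fragment is 1 sequenced fragment divided by a size factor of its library. Depth was between 20809136 and 27338241 fragments in the 189N3 wild-type libraries and between 22141492 and 24002006 in the Dp(16)1Yey wild-type libraries.

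The hippocampus of the late mouse embryo is still being built. Radial progenitors and Eomes-positive intermediate progenitors divide beside the ventricle and in the dentate migratory stream, pyramidal neurons settle in the CA fields, granule cells of the dentate gyrus begin to form, and astrocyte genes start to rise. The tissue borders on meninges, choroid plexus, neocortex and striatum, and unperfused embryonic tissue holds blood. In the mouse the embryonic globins Hbb-y and Hba-x are made by primitive red cells of the yolk sac, and the adult globins Hbb-bs, Hbb-bt, Hba-a1 and Hba-a2 by definitive red cells of the fetal liver.

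Genes of the hippocampal field were looked up first. Of 20 such genes, 18 were named in the table and all 18 passed the filter on low values. All 17 named genes of a striatum list and all 17 of neocortical projection neurons passed it too. Passing the filter therefore does not tell hippocampus from its neighbours. The transcription factor Prox1, a dentate granule cell gene, had between 373 and 856 normalised fragments in the 7 libraries. Zbtb20, which marks the hippocampal primordium, had between 2254 and 7734, and Neurod6, a gene of pyramidal neurons, between 8965 and 18637. None of the 18 was called between the lines, and 1 was called lower with GC bins centred (a fit described below). Without overlap of the groups, 3 were higher and 2 lower. Of all loci tested, 14.7% were higher and 10.8% lower in that way. Their median log2 difference (Dp(16)1Yey wild-type minus 189N3 wild-type, here and throughout) was 0.20, beside 0.07 over all loci tested.

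Levels of different genes were compared per kb of exon. Among 17221 protein-coding nuclear genes, the tubulin gene Tuba1a (chr15:98949837-98953703, GRCm38) stood first with a mean of 78913 normalised fragments per kb and a range of 59266 to 98434 over the 7 libraries. The elongation factor gene Eef1a1 (chr9:78478449-78489151) followed with 75750 and a range of 64069 to 86238, so the ranges of these 2 genes overlapped. The next levels were those of the tubulin locus Tubb2a, which also holds Tubb2b, with 37246 per kb, the thymosin gene Tmsb4x with 23434 and the actin gene Actb with 22224. The list of 15 went on with ribosomal proteins (Rps3a1, Rpl23a, Rps4x), the chromatin-associated prothymosin gene Ptma, the microtubule regulator Stmn1, the chaperone Hspa8, the calmodulin gene Calm2 and the tubulin gene Tubb5, all between 13791 and 17249.7 per kb. Hbb-bs, an adult globin, also stood among the 15, with 19131 per kb. A locus named Tigit had 19918 per kb, but it is made mainly of an assembled exon that reaches into intron sequence, and its level is uncertain. The 15 genes held 3.12% of all normalised fragments.

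**Figure D1:**
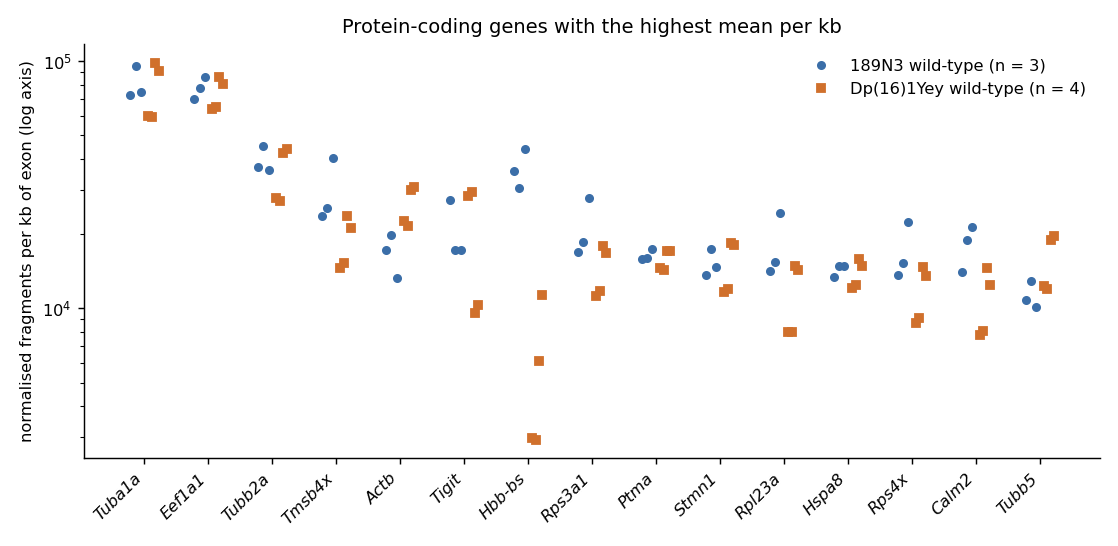
Normalised fragments per kb of exon (log axis) for the 15 protein-coding genes with the highest mean over the wild-type libraries; circles are the 3 libraries of the 189N3 line and squares the 4 of the Dp(16)1Yey line. Hbb-bs is the gene whose groups stand farthest apart.

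The order of abundant genes was much the same in both lines. Of the 15, 11 were also among the first 15 when the groups were ranked apart, and Spearman's rho between the group means was 0.982 over 13388 protein-coding genes, a description across genes that share all libraries. Of the 15, Hbb-bs passed the test for a line difference. The 10 noncoding genes with most normalised fragments, a measure not scaled to length, began with the nuclear RNA Malat1, which had between 89905 and 147055 per library. Per kb of exon the mean was 16759 for Malat1 and 705 for the imprinted RNA Rian. The methods name a stranded library kit, but whether strand was used in counting is not stated. Levels of 4930563F08Rik, Nrg3os and 1700080N15Rik, which overlap Auts2, Nrg3 and Frmd4a on the other strand, therefore cannot be told apart from those genes. The list also held 2900097C17Rik and C130071C03Rik, and a locus named Cct6a that the annotation lists as a processed transcript. None of the 10 passed the test for a line difference.

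Of the 36047 loci, 1351 (3.75%) differed between the wild-type groups with an adjusted p under 0.05 (limma on log2 of the value plus 1). Of these, 825 (2.29% of the loci tested) were higher in Dp(16)1Yey wild-type and 526 (1.46%) were lower. Among 14876 named loci tested, 860 (5.78%) were called, 461 higher and 399 lower. Counts of list members called below are to be read beside that share. The count of 1351 rested on taking the 4 Dp(16)1Yey wild-type libraries as separate samples. Replicates 0 and 1 differed by a median of 0.0750 on the log2 scale over 19246 loci with a mean of at least 100, and replicates 2 and 3 by 0.0852, whereas the 4 other pairs of that group differed by 0.368 to 0.386 and the 3 pairs of 189N3 wild-type libraries by 0.178 to 0.218. The alike pairs still differed by more than counting error, with mean chi-square values per locus of 1.87 and 4.01. With each alike pair averaged, 28 of 36107 loci (0.0775%) passed, and all 28 were among the 1351. Of the 28, 4 named loci were higher and 13 lower. Genes named below passed with alike pairs averaged only where that is stated. Leaving out any 1 of the 7 libraries left between 13 and 78 loci. All 1351 loci called in the fit of 7 separate libraries had groups that did not overlap. By itself, that held for 5294 loci upwards (14.7%) and 3901 downwards (10.8%). With 3 against 4 libraries the exact two-sided permutation test cannot go below p = 0.0571, which is the value of every gene called in that fit.

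The called genes sorted by base composition. Over 14021 genes with an annotated transcript, Spearman's rho between the log2 difference and the GC content of that transcript was 0.60, a description across genes that share the same 7 libraries. In the fifth of genes with the lowest GC content, below 43.7%, 3 genes were higher and 268 lower, and the median log2 difference was -0.34. In the fifth with the highest, above 55.4%, 203 were higher and 15 lower, and the median was 0.41. With the medians of 20 GC bins set equal in each library, a setting added once the data had been seen, 305 genes (2.18% of 14021) were higher and 511 (3.64%) lower. Of the 832 called genes with a GC value, 302 passed in this fit too, and none of the 832 changed direction. Values from this fit are called GC-centred below.

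**Figure D2:**
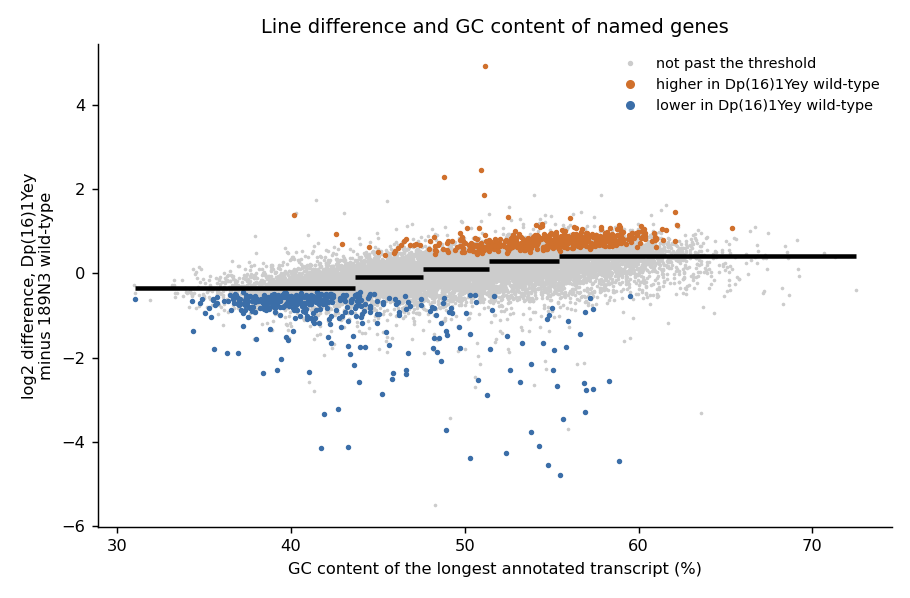
Log2 difference between the wild-type groups against the GC content (%) of the longest annotated transcript for 14021 genes; orange and blue points passed the test upwards and downwards, and black lines are the medians of 5 equal groups of genes, which go from -0.34 to 0.41. Blue points lie mainly at low and orange points at high GC content.

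The largest differences were in loci of ribosomal RNA and of repeats. Rn45s, the precursor of ribosomal RNA, had 304, 155 and 245 normalised fragments in the 189N3 wild-type libraries. It had 3863, 4959, 8267 and 5691 in the Dp(16)1Yey wild-type libraries, all above them. The difference was 4.59 ± 0.28 (log2, SE) with an adjusted p of 6.95e-05 (limma). Lars2 (chr9:123366927-123462666), the gene of mitochondrial leucyl-tRNA synthetase, had 159, 143 and 126 against 3380, 4142, 6765 and 3745, a difference of 4.92 ± 0.22. A locus that carries the messenger RNA name AK155692 rose most among named loci, by 6.40 ± 0.33, from at most 30.3 to at least 1134. Of the 12 loci that were higher with alike pairs averaged, 8 lie in repeats and carry no gene name, and the other 4 are these 3 and Hbb-y.

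Isoform values are estimates that divide the fragments of the Lars2 locus among its assembled transcripts, and they give no positions. An assembled transcript that the annotation does not hold was estimated at 3155, 3879, 6434 and 3374 normalised fragments in the Dp(16)1Yey wild-type libraries and at 0 to within rounding in the 189N3 wild-type libraries. A transcript that matches an annotated one was at 28.9, 21.3 and 20.04 against 24.6, 19.1, 20.8 and 18.9, with overlapping groups. Another annotated transcript was at 110, 101 and 77.7 against 195, 192, 310 and 352. In the Rn45s locus, 1 of 3 assembled transcripts held 3835 to 8187 of the Dp(16)1Yey fragments, against 63.6 to 165 in 189N3. The labels give polyA RNA and the methods a stranded total RNA kit, and how much ribosomal RNA was removed from each library was not tested. Reads of ribosomal RNA copies can also be shared among loci.

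The adult beta globins were lower in Dp(16)1Yey wild-type and the embryonic globin Hbb-y was higher. Of 17 erythroid genes, 9 were tested, 6 were lower in Dp(16)1Yey wild-type and 1 was higher, and the list's median log2 difference was -2.28 beside 0.07 over all loci. With GC bins centred the counts were the same, and the median was -2.35. The adult beta globin Hbb-bs had 27518, 23468 and 33927 normalised fragments in 189N3 wild-type and 2287, 2257, 4699 and 8694 in Dp(16)1Yey wild-type, a difference of -2.88 ± 0.42. Hbb-bt went the same way by -2.53 ± 0.46, with 8693, 5829 and 8286 against 779, 733, 1458 and 3357. The embryonic beta globin Hbb-y was low in both lines, with 18.2, 21.7 and 25.4 against 97.9, 107, 86.4 and 154, but it was higher in Dp(16)1Yey wild-type by 2.28 ± 0.23 (adjusted p = 0.00538, limma).

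The other called members included Alas2, which starts haem synthesis in red cells (-1.66 ± 0.20), and Slc4a1, the anion exchanger of the red cell membrane (-2.28). Hba-x, the embryonic alpha-like globin, had 33.8, 28.9 and 21.8 against 49.5, 40.6, 13.0 and 54.6 and did not pass the test. The name Hba-a2 is carried by 2 loci, near-identical copies whose reads can be shared. In 1 of them the values were 7724, 4830 and 6771 against 644, 614, 1083 and 2748, a difference of -2.60 ± 0.45. In the other, which entered the list as the more abundant, 189N3 wild-type replicate 1 had 1877 and the groups overlapped. Fewer red cells and less RNA per cell cannot be told apart in bulk tissue. Summed over the list, the libraries held 34086 to 54557 normalised fragments in 189N3 wild-type and 4747 to 17454 in Dp(16)1Yey wild-type. With alike pairs averaged, Hbb-bs, Alas2 and Hbb-y still passed.

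The 150 bases before the transcription start of these globin genes are printed because genes of 1 cluster went in opposite directions. They are from RefSeq (GRCm38.p6), 5′ to 3′ on the gene's strand, and capitals mark CACCC and CCAAT on either strand. CACCC is the letter core bound by erythroid Krüppel-like factors and CCAAT that of CCAAT-binding factors. The windows of the beta cluster, all on the minus strand, are chr7:103853208-103853357 for Hbb-y, chr7:103827929-103828078 for Hbb-bs and chr7:103813924-103814073 for Hbb-bt. Those of the alpha cluster, on the plus strand, are chr11:32276450-32276599 for Hba-x and chr11:32296342-32296491 for Hba-a2.
Hbb-y: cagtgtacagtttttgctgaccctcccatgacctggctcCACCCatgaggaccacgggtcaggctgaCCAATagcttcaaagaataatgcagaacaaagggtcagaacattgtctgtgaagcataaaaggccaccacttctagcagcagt
Hbb-bs: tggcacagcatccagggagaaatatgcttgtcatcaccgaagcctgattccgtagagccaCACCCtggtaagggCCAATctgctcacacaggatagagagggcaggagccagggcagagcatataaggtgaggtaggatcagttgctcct
Hbb-bt: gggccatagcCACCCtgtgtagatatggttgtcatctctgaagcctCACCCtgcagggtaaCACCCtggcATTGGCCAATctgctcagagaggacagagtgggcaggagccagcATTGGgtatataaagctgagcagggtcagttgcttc
Hba-x: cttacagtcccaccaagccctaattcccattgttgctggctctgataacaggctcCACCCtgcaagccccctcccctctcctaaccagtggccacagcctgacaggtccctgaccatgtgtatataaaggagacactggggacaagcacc
Hba-a2: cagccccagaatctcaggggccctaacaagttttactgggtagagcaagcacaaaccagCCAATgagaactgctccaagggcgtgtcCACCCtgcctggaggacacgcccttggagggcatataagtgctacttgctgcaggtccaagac
Both motifs are in the window of Hbb-y and in those of Hbb-bs and Hbb-bt, with 1 match of each in the first 2 and 3 of each in Hbb-bt, where 2 of the CCAAT matches, on opposite strands, adjoin. Of 32851 RefSeq promoters searched over the same 150 bases, 37.4% held CACCC, 24.5% CCAAT and 8.69% both. Hba-x holds CACCC and no CCAAT in this window, and Hba-a2 holds both.

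Genes of connective tissue, skin and muscle were called in 1 direction, lower in Dp(16)1Yey wild-type. Of 13 meningeal and connective tissue genes tested, 6 were lower and none higher, and the median was -1.89 (-2.07 with GC bins centred). Col1a1 and Col1a2, the chains of type I collagen, had 1601, 424 and 1141 against 20.6, 30.7, 33.5 and 134, and 2168, 660 and 1692 against 138, 153, 63.7 and 161. Their differences were -4.44 ± 0.61 and -3.46 ± 0.43. Igf2, a growth factor made by meninges, was lower by 1.73 on the log2 scale, with 2482, 1079 and 1659 against 451, 408, 506 and 637. Foxc1 (-1.13), a transcription factor of meningeal mesenchyme, Postn (-1.89) and Col6a1 (-1.43) were the other called members. The bone matrix genes Ibsp (-2.87) and Spp1 (-1.72), which belong to no list and were named after their values were seen, were also called. No list of bone genes was made.

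Of 16 skin genes tested, 7 were lower and none higher, with a median of -2.74 (8 lower and a median of -2.96 with GC bins centred). The keratin gene Krt7 had 78.8, 27.1 and 47.1 against 2.06, 1.98, 1.08 and 1.01. Krt13, Krt6a, Krt15, Krt5, the desmosomal gene Dsg1a and the calmodulin-like gene Calm4 were the other 6. Among the called named loci, of the 12 lowest relative to 189N3 wild-type, 10 are epithelial or muscle genes or proteinase inhibitors of the stefin family (Stfa3 and BC100530), the other 2 being the collagen genes. Among them Sprr1a, a cornified envelope gene, had 33.8, 14.4 and 38.7 in 189N3 wild-type and 0 in all 4 Dp(16)1Yey wild-type libraries, at least 37.6-fold higher against a floor of 3 fragments over the group, and Pkp1, a desmosomal gene, differed by -3.77 ± 0.65. Of 14 muscle genes, 6 were tested and 5 were lower (Myl1, Mylpf, Acta1, Tnnt3 and Myh3), with a median of -2.43. With GC bins centred 5 were lower and the median was -2.71. The filter on the mean keeps members high in 189N3 wild-type alone, such as Myl1 (means 38.2 against 2.36) and Krt7 (51.0 against 1.53). Members low in both groups were not tested, so the filter can enlarge the shares called and the medians of these lists.

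The levels of these lists also varied among the 189N3 wild-type libraries. Summed skin values were between 773 and 4302 in 189N3 wild-type and between 430 and 694 in Dp(16)1Yey wild-type, and summed connective tissue values between 4174 and 10139.5 against 1803 and 2746. In 189N3 wild-type, replicate 1 had the lowest Col1a1, Krt7 and Acta1. With alike pairs averaged, Col1a1, Col1a2, Krt7, Krt13, Sprr1a, Ibsp and Spp1 passed, and no gene of the muscle list did. How much of these tissues was taken with each hippocampus was not tested.

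**Figure D3:**
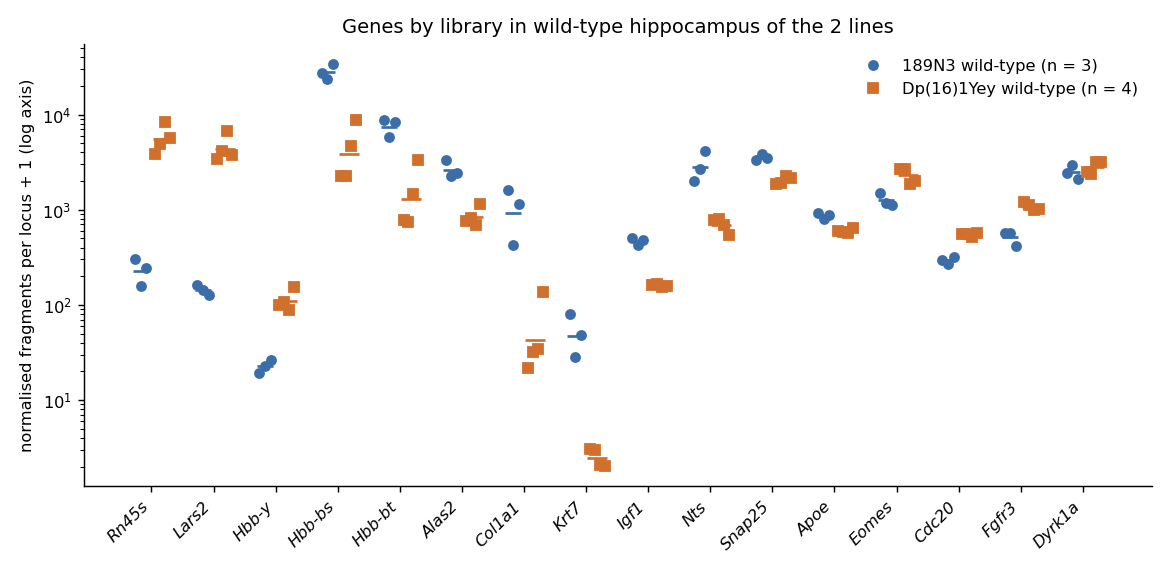
Normalised fragments plus 1 (log axis) of 16 genes in each wild-type library; circles are 189N3 and squares Dp(16)1Yey wild-type, and lines are the means of the log values. Rn45s, Lars2 and Hbb-y are higher in every square, the adult globins, collagen, keratin, Igf1 and Nts are lower, and Dyrk1a overlaps.

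Igf1, Nts and Car3 were lower in Dp(16)1Yey wild-type. Igf1, an insulin-like growth factor, had 509, 425 and 477 against 161, 166, 152 and 158, a difference of -1.55 ± 0.13 (adjusted p = 0.0012, limma). With GC bins centred it was -1.15 and still passed. Nts, which encodes the peptide neurotensin, had 2004, 2693 and 4186 against 788, 800, 692 and 536 (-2.02 ± 0.24). Car3, a carbonic anhydrase of muscle and fat, had 152, 90.2 and 149 against 23.7, 25.7, 22.7 and 28.3 (-2.30 ± 0.22). Igf1, Nts and Car3 passed with alike pairs averaged.

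Of 29 genes of neuronal maturation tested, Snap25, a vesicle fusion protein, was lower (-0.81 ± 0.12) and no other member was called, with a median of 0.13. Its values were 3349, 3895 and 3455 against 1869, 1895, 2262 and 2129. Its difference was -0.41 with GC bins centred and still passed, but Snap25 did not pass with alike pairs averaged. The GABA receptor gene Gabra5 (-0.85) did not pass (adjusted p = 0.0831, limma), nor did the neurofilament gene Nefl. Ndnf, a gene of Cajal-Retzius cells, was the 1 of 10 genes of that list that was called (-0.87 ± 0.17), and it lost the call with GC bins centred (-0.60). Counts of 1 of 29 and 1 of 10 lie near the 5.78% of all named loci that were called.

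More progenitor genes were called higher than lower in Dp(16)1Yey wild-type. Of 20 neural progenitor genes, 6 were higher (Eomes, Hes1, Btg2, Notch1, Vim and Tfap2c) and 1 lower (Ptprz1), with a median of 0.40 beside 0.07 over all loci. Eomes, the transcription factor of intermediate progenitors, had 1496, 1168 and 1124 against 2683, 2706, 1876 and 2018 (0.87 ± 0.17). Hes1, a target of Notch signalling, had 106, 97.5 and 122 against 202, 209, 159 and 193 (0.81 ± 0.16), and the receptor gene Notch1 differed by 0.78 ± 0.18. Vim, an intermediate filament of radial progenitors, had 7386, 5534 and 5520 against 12422, 12111, 8341 and 8998. Fabp7, also of radial progenitors, had 12893, 16024 and 20743 against 7246, 7656, 12305 and 11353, the other way, and was not called. With GC bins centred, none of the 20 was called and the median was 0.05.

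Of 24 cell cycle genes, 5 were higher and none lower, with a median of 0.19. They were the replicative helicase subunits Mcm2 (0.81), Mcm3 (0.73) and Mcm5 (0.68), the mitotic kinase gene Aurkb (0.60) and Cdc20, an activator of the anaphase-promoting complex (0.89 ± 0.12). Cdc20 had 298, 268 and 319 against 558, 557, 512 and 565, with no overlap. With GC bins centred, 2 were called and the median was 0.29. In the transgenic libraries of the same lines, described below, none of the 24 was called and the median was 0.61. There Dp(16)1Yey replicate 1 stood apart in Top2a, a topoisomerase of dividing cells, with 20909 against 5874, 9920 and 9547 in the other 3. No replication-dependent histone gene of 39 tested was called (median 0.10, and -0.20 with GC bins centred).

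Of 20 genes of developmental signalling, 4 were higher and none lower. These were the Wnt receptor gene Fzd9 (1.15 ± 0.17), the Wnt target Axin2 (0.81), the Hedgehog co-receptor gene Boc (0.88) and Id4, an inhibitor of bHLH factors (0.93 ± 0.13). The list's median was 0.46, and 0.12 with GC bins centred, where Id4 alone was called. Fgfr3, a receptor of astrocyte progenitors, had 574, 568 and 413 against 1216, 1110, 992 and 1013 (1.07 ± 0.15). In the same list of 14 astrocyte lineage genes, Apoe (-0.55 ± 0.12) and Sparcl1 (-0.81 ± 0.14) were lower, and Aqp4, the water channel, had 114, 274 and 215 against 64.9, 63.3, 107 and 106 without passing. Apoe and Sparcl1 passed with GC bins centred, and Fgfr3 did not. None of these progenitor, cell cycle, signalling and astrocyte genes passed with alike pairs averaged.

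**Figure D4:**
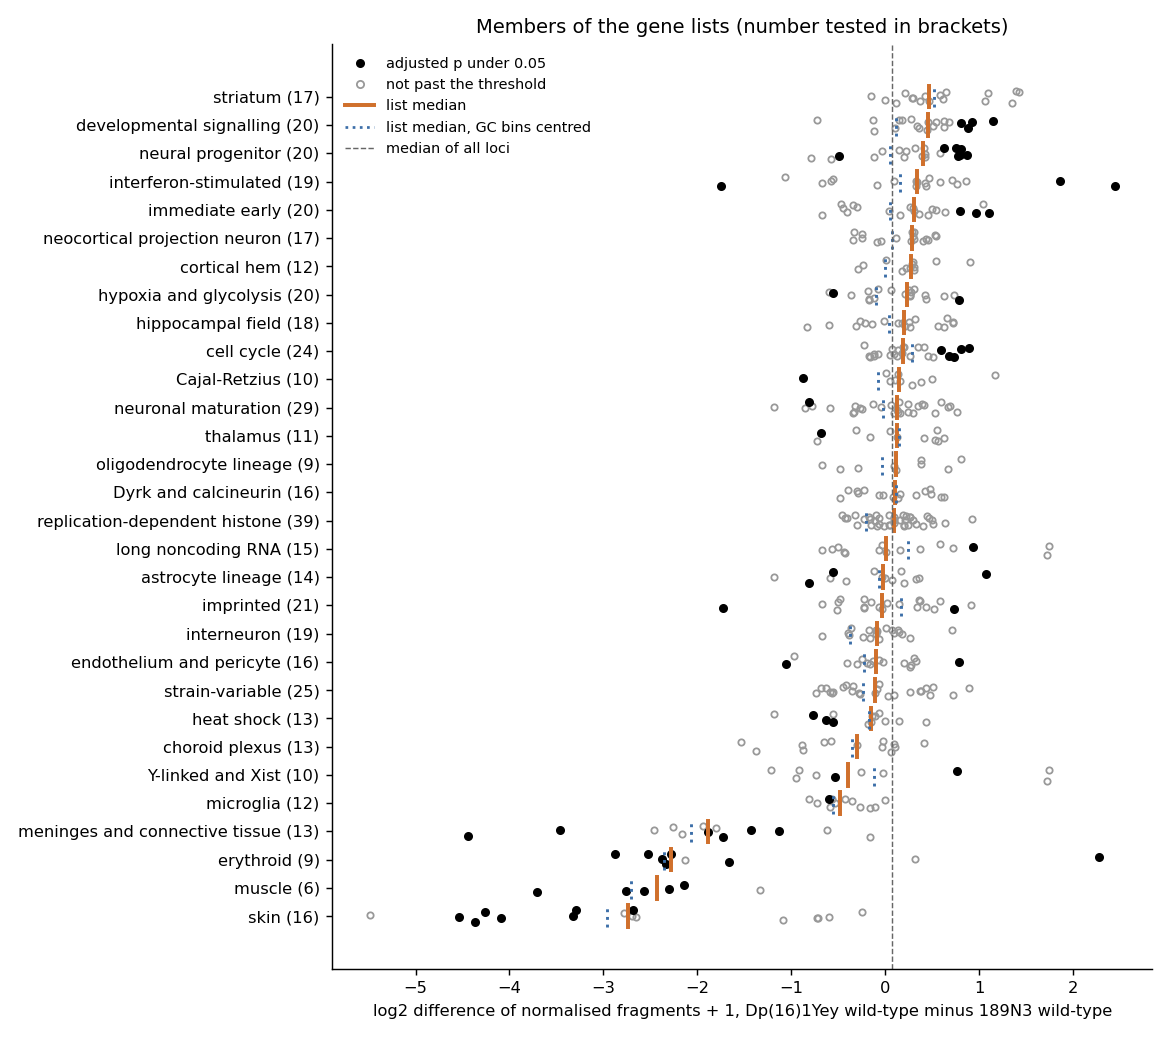
Log2 differences of the members of gene lists with at least 6 members tested; black points passed the test, open points did not, orange bars are list medians, blue dotted bars the medians with GC bins centred, and the dashed line is the median of all loci (0.07). Skin, muscle, erythroid and connective tissue genes lie to the left, and several medians above the dashed line move towards it when GC bins are centred.

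Microglial genes lay below zero. Of 12 tested, 11 had a negative difference, Ctss (-0.60 ± 0.14), a lysosomal protease, was called, and the median was -0.48. A count of 1 called of 12 lies near the 5.78% of all named loci. With GC bins centred 3 were called, Ctss, C1qc and Fcrls. Of 16 vascular genes, the glucose transporter Slc2a1 was higher (0.79 ± 0.14) and the pericyte gene Rgs5 lower (-1.05 ± 0.13). Slc2a1 lost the call with GC bins centred (0.49), whereas Rgs5 (-0.74) and the tight junction gene Cldn5 (-0.61) were called lower. Before centring, Cldn5 differed by -0.19 and its groups overlapped, with 243, 264 and 227 against 157, 183, 233 and 309. Rgs5 had 1572, 1708 and 2121 against 823, 917, 895 and 808.

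Some stress and activity genes differed, beside 5.78% of all named loci called. Of 13 heat shock genes, 3 were lower, the chaperone Hsp90aa1 (-0.77), its partner Chordc1 (-0.55) and the co-chaperone Dnaja1 (-0.63). Hsp90aa1, Dnaja1 and Hspb1 (-1.60) were called lower with GC bins centred, and Chordc1 was not. Of 20 immediate early genes, Arc (1.11 ± 0.23), the kinase gene Sik1 (0.97 ± 0.15) and Btg2 (0.80) were higher, and with GC bins centred Sik1 was called upwards and Junb (-0.89) downwards. Of 19 interferon-stimulated genes, Usp18 (2.45 ± 0.37) and Mx2 (1.86 ± 0.40) were higher and Rsad2 (-1.75 ± 0.29) lower. Usp18 rested on few reads, with 9.53, 3.61 and 8.46 against 33.0, 29.7, 59.4 and 48.5. Mx2 rested on fewer, with 3.47, 3.61 and 3.63 against 8.24, 17.8, 25.9 and 15.2. It was not among the loci tested with alike pairs averaged. Isg20, an exonuclease gene of no list, had 47.7, 53.2 and 39.9 against 8.24, 6.93, 2.16 and 10.1 and passed also with alike pairs averaged. In hypoxia and glycolysis genes, Bnip3 was lower (-0.56) and Slc2a1 higher among 20 tested, and neither was called with GC bins centred, where Higd1a (-0.55) was.

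The named loci with the largest differences upwards also included Grin2c (1.46), a subunit gene of NMDA receptors, Ddx60 (1.39), Bmp2 (1.33), Fanca (1.17) and a locus named AK017368 (1.17). Of these, Ddx60 passed with GC bins centred (1.70), and none passed with alike pairs averaged.

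Several lists held no called gene. These were interneuron (19 tested, median -0.09), striatum (17, 0.47), neocortical projection neuron (17, 0.29), choroid plexus (13, -0.30), cortical hem (12, 0.28) and oligodendrocyte lineage (9, 0.12). Another was a mixed list of Dyrk genes, calcineurin regulators and other chromosome 16 genes such as App, Sod1 and Olig2 (16, 0.11). Dyrk1a itself (chr16:94570010-94695517) had 2448, 2977 and 2126 against 2488, 2397, 3171 and 3175, a difference of 0.16 ± 0.16, and the groups overlapped. At this spread, these lists do not show that the lines are alike. Of 17 striatum genes, 16 had a positive difference, and the median was 0.52 with GC bins centred. Summed striatum values overlapped, with 7478 to 8601 in 189N3 wild-type and 7431 to 15294 in Dp(16)1Yey wild-type. Of 15 long noncoding RNAs, Miat was higher (0.94 ± 0.21), of 21 imprinted genes Grb10 (0.73) was higher and Igf2 lower, and of 11 thalamic genes Rora was lower (-0.68). Such counts lie near the 5.78% of all named loci that were called. Igf2 stayed called with GC bins centred and Cdkn1c (-0.64) was added, while Miat, Grb10 and Rora were not called.

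A list of 25 tested genes written as candidates for differences between inbred strains held no called gene (median -0.11). Nnt, whose coding sequence is interrupted in C57BL/6J, had 469, 412 and 424 against 578, 590, 552 and 543 (0.38 ± 0.12, adjusted p = 0.0875, limma). Glo1 (-0.28), Gabra2 (-0.35), Wdfy1 (0.03) and Erdr1 (0.72) also missed the threshold. Called genes were found on every autosome and on X, from 3.53% of the named loci tested on chromosome 12 to 8.81% on X. No named Y-linked locus of 4 tested was called.

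Sex-linked genes varied within both groups. Xist, the RNA of the inactive X chromosome, had 88.4, 13036 and 10073 in 189N3 wild-type and 4224, 4096, 13165 and 14803 in Dp(16)1Yey wild-type. The Y-linked gene Ddx3y had 2335, 1581 and 2638 against 1412, 1465, 582 and 598, so that 6 of the 7 libraries held at least 4096 of the first and at least 582 of the second. Xist (1.75 ± 1.47) and Ddx3y (-1.21 ± 0.36) were not called. The X-linked genes Kdm5c (0.77) and Ddx3x (-0.53) were called in opposite directions. With log2 Xist as a covariate 2024 loci were called.

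A locus named for a mitochondrial gene was lower in Dp(16)1Yey wild-type. The map of names holds none of the 15 usual symbols of the mitochondrial genome, but a locus is named Cytb, for cytochrome b, and 7 other named loci stand beside it in the table, whose genome position was not determined. Cytb had 100526, 99952 and 132926 against 52574, 50525, 67044 and 66013 (-0.91 ± 0.15). All 8 loci had negative differences, from -1.66 to -0.81, and 5 were called. None of the 8 passed with alike pairs averaged, and none was called in the transgenic libraries described below. They held 1.74% to 2.44% of all normalised fragments in 189N3 wild-type and 0.891% to 1.35% in Dp(16)1Yey wild-type.

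The same line contrast was then made in the 7 transgenic libraries, 3 of 189N3 and 4 of Dp(16)1Yey, which the wild-type comparison does not use. Loci of the stretch from Lipi to Zbtb21 (chr16:75540514-97962622) were left out, since copy number differs there. Of 35753 loci, 13 (0.0364%) were called, and 5247 had an unadjusted p under 0.05. Of the 1351 loci called in wild-type, 1328 were tested here. The difference had the same sign in 1260 of them (94.9%), against 71.2% of all 34928 loci tested in both. The transgenic contrast holds the transgenes as well as the lines. The wild-type mice are littermates of the transgenic ones, so line, litter, stage and preparation can be shared by both contrasts. Equal signs are therefore not independent support, and the 1328 loci were picked by their wild-type difference, unlike the 34928.

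Of the 13, 12 were also called in wild-type in the same direction. These were 8 unnamed repeat loci, AK155692, Rn45s (3.72), Lars2 (3.54) and, downwards, Spp1 (-1.95). Spp1 had 266, 175 and 228 against 65.9, 74.2, 69.1 and 55.6 in wild-type, and 121, 224 and 220 against 47.5, 62.3, 39.8 and 38.2 in the transgenic libraries. Igf1 went the same way without passing, with 310, 476 and 544 against 145, 193, 169 and 158. The progenitor genes Eomes (1.00), Hes1 (0.93) and Btg2 (1.11) and the list as a whole (median 0.46) had values near those in wild-type, and none was called.

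No gene of the erythroid, connective tissue, skin and muscle lists was called in the transgenic libraries. The median of the erythroid list was 0.29 in the transgenic libraries (9 tested) and that of connective tissue -0.63 (13 tested). It was -0.11 for skin (7 tested) and -0.17 for muscle (6 tested). In wild-type 16 skin genes were tested, so the skin medians of wild-type and transgenic libraries cover different genes. Krt7, Krt13, Krt6a and Calm4, called in wild-type, were below the filter in the transgenic libraries, and their difference was not tested there. Hbb-bs had 8675, 10824 and 14101 in 189N3 libraries and 3211, 24894, 6729 and 12685 in Dp(16)1Yey libraries, with overlapping groups. Hbb-y ranged from 1.98 to 5846 among the latter, the highest value being that of replicate 1, and Hba-x from 7.91 to 1315. Spearman's rho of the difference with GC content was 0.26 there. The test of the difference between both contrasts, in 1 fit of the 14 libraries, called none of 35835 loci (906 with an unadjusted p under 0.05, limma).

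**Figure D5:**
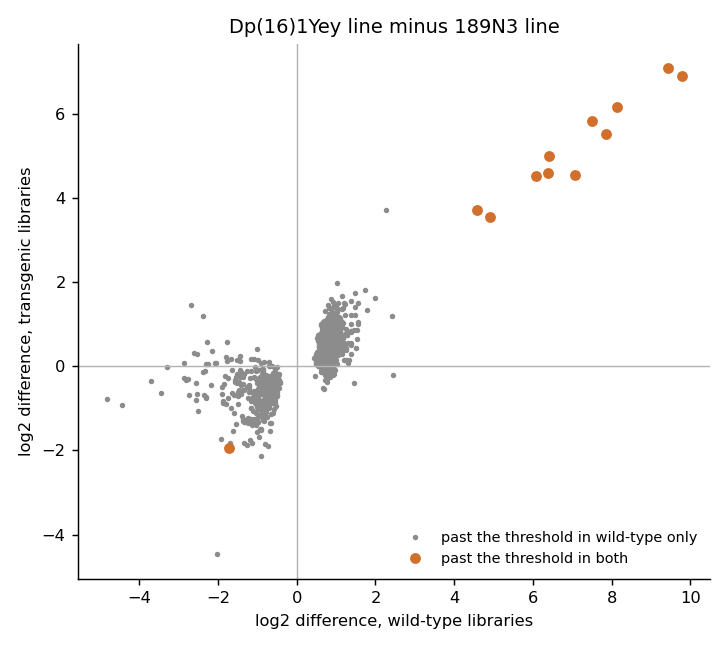
Log2 difference between the lines in the transgenic libraries against that in the wild-type libraries, for the 1328 loci called in wild-type; orange points were called in both. Most points lie in the quadrants of equal sign, and 11 of the 12 orange points are at the upper right.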

How the data were processed

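RNA-seq libraries of 100 base paired-end reads were made by the authors from 1 µg of RNA. According to the methods and labels, reads were aligned to mm10 with Bowtie and TopHat, transcripts were merged with the Cufflinks suite, and loci were quantified with bias and multi-read correction; versions are not given in the sources used here. The deposited signal values are fragments per locus divided by 1 size factor per library. Locus names were taken from the deposited map by matching isoform sums (20531 of 59796 loci), and positions, exon lengths and GC content from GENCODE M21 (GRCm38).

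The 2 wild-type groups were compared with limma 3.58.1 (R 4.3.3) on log2(value + 1), with a trend, for loci with a mean of at least 10, with Benjamini-Hochberg adjustment and a threshold of 0.05. The script was tested on simulated data. Library values recovered as whole fragments were also tested with edgeR 4.0.16 and DESeq2 1.42.0. Replicate numbers are not stated to pair libraries. Deviations of same-numbered libraries correlated at 0.40, -0.40 and 0.02, so they were not treated as pairs. Whether each library is 1 embryo is not stated, and p-values measure the spread between these libraries, which may be technical.

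The libraries and gene lists were chosen with earlier results of these data known. Named genes are the 15 coding and 10 noncoding genes of highest level, the 12 largest differences in each direction, the largest of each list, and sex-linked, strain-variable and Dyrk1a genes. Other list members, and Isg20, Igf1, Nts, Car3, Ibsp and Spp1, were named after their values were seen, the members because they were called or show a level, the 6 because they passed with alike pairs averaged. A few genes that these rules name are not reported here.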

Additional observations from a re-analysis of the deposited data

Results flagged for a closer look

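In 5 called genes, 1 Dp(16)1Yey wild-type library stood apart from the other 3 by more than Dixon's 95% limit for 4 values, out of 81 genes tested. Chance flags about 1 in 20 groups of separate values, a rate that does not apply to libraries that come in alike pairs. The share of the range taken by the gap was 0.887 for Col1a1, where replicate 3 was highest with 134 normalised fragments, 0.913 for Tfap2c, where replicate 0 was highest with 308, and 0.848 for Cdc20, where replicate 2 was lowest with 512. It was 1.0 for Stfa3 and for BC100530, where 1 library had 2.02 and 4.32 and the other 3 were tied at 0. In none of the 5 did that library reach the values of 189N3 wild-type, which follows from their selection, since no called gene had overlapping groups.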

How the results depend on the processing

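The count of 1351 called loci was 614 with no filter on low values, 85 without the trend, 40 in 1 fit of all 4 groups, 28 with alike libraries averaged, 3282 with DESeq2, 2084 with named loci alone, 2102 with loci that have a GC value and 816 with GC bins centred, and it was 9195 by groups that do not overlap. With the share of antisense loci as a covariate it was 11116. That share was 17.1% in 2 Dp(16)1Yey wild-type libraries and 23.7% and 24.2% in the other 2, against 17.3% to 19.8% in 189N3 wild-type. Leaving out 1 library, whichever of the 7, gave 13 (without 189N3 wild-type replicate 2) to 78 (without Dp(16)1Yey wild-type replicate 3). With the replicate block, a fit that treats equal numbers as pairs, it was 75. The cause was not tested.

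The 64 called genes of the lists became 9 without the trend, 6 in the fit of 4 groups, 8 with alike libraries averaged, 253 with the antisense covariate, 1 to 19 with 1 library left out, and 19 with the replicate block. Of 82 called genes that the naming rule takes in, those tested under a setting (51 to 82) kept their direction. Of the called loci, 61.1% were higher, against 50.7% with median-ratio size factors, 41.2% after quantile normalization, 49.9% with edgeR, 46.4% with DESeq2 and 37.4% with GC bins centred, so neither direction prevails under every scaling.

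The transgenic count of 13 was 16 without Dp(16)1Yey replicate 1, and the 15 most abundant coding genes were the same 15 per kb of longest transcript. Loci near a mean of 10 rest on few fragments.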

Other observations

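A few genes of striatum and choroid plexus, chosen after their values were seen, varied widely within a group. Drd2, the D2 dopamine receptor gene of striatal neurons, had 4.12 and 2.97 normalised fragments in Dp(16)1Yey wild-type replicates 0 and 1 and 68.0 and 84.9 in replicates 2 and 3. It had 1.73, 16.2 and 7.25 in 189N3 wild-type. Rxrg, a retinoid receptor gene of striatum, had 21.6 and 13.9, then 506 and 473 in the same 4 libraries, and 26.9, 53.2 and 30.2 in 189N3 wild-type. Ttr, the main secreted protein gene of the choroid plexus, had 13477 in 189N3 wild-type replicate 0, 259 and 326 in the other 2, and 1633, 1582, 117 and 351 in Dp(16)1Yey wild-type. Lef1, a gene of the hippocampal primordium and dentate precursors, had 332 and 274 in Dp(16)1Yey wild-type replicates 0 and 1 and 138 and 151 in replicates 2 and 3.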
